A study of Sus scrofa with 9 samples.

Results

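Testis of an infertile boar carrying a reciprocal translocation between chromosomes 1 and 14 was compared with testis of an oligospermic boar that has a normal karyotype. The comparison used 6 of the 9 arrays of the series, chosen by their titles: 3 of the t(1;14) boar (2n=38,XY,trcp(1;14)) and 3 of the oligospermic boar (2n=38,XY). The other 3 arrays hold control testis of fertile boars with normal semen (2n=38,XY), and their levels stand beside the results where they help. The t(1;14) animal was a Landrace × Duroc cross with few, poorly motile and malformed spermatozoa. By the series' design text each infertile group is 1 boar, with RNA extracted in 3 replicates, so karyotype and animal cannot be told apart and every p-value measures only the spread between arrays. Total RNA was labelled with cyanine 3 and hybridized to a custom porcine array of 60889 probes, and all levels below are log2 quantile-normalized signals of the 6 arrays, except that control levels come from all 9 arrays normalized together. The question that the pair addresses is how a testis with the translocation differs from one with low sperm output and no rearrangement. Breed and age of the oligospermic boar were not given in the sources used here.

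Sperm form in seminiferous tubules, where spermatogonia divide, spermatocytes pass through meiosis, and haploid spermatids build the acrosome, the flagellum and a protamine-packed nucleus. Sertoli cells support the germ cells inside the tubules. Leydig cells, between the tubules, take up or make cholesterol and convert it to androgens and estrogens, and in the boar they also make relaxin family hormones. During male meiosis the X chromosome is silenced in a compartment called the XY body, and unpaired autosomal segments can be silenced too.

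The array reads each gene through 60-base probes, and 30 bases of the probes behind several of the results below are shown here. Capitals mark AATAAA, the common polyadenylation signal, which lies near the 3′ end of many transcripts. The first 3 probes are those of CDKAL1, which gave different log2 fold changes. The others are the probes of a sphingomyelinase, a complement component, an extracellular matrix protein, both cholesterol-handling steps of steroid synthesis, a flagellar and an acrosomal protein, and the probe without a gene name that fell the most.
CDKAL1, probe A_72_P399983: ctcaaagggcaataatttatactggtctct
CDKAL1, probe CUST_415_PI428644611: ttttccactttcAATAAAcactttaaaatg
CDKAL1, probe A_72_P032726: aaggataatggaaaacggttggggggcgca
SMPD3, probe CUST_979_PI428644611: aaagctgaggtggaagaattcagcttcatc
C6: gttcatgtggcactaaaatgatggcacttc
TNC: attcagcaaaaatctcccggtgacagcatc
STAR: attttacactggAATAAAatgagttgtcag
CYP11A1: tcccatgaaggcAATAAAtagctgaactat
ODF1: tattttaggatcggtaaacgtgtgcggctt
EQTN: ttaaaggactcagacactaagtcaaagtct
Unnamed, probe A_72_P084046: gtaaactgtgtaggtaaaggatctttgctc
Of the 40567 probes retained, 13.6% hold AATAAA on the printed strand and 4.43% hold its reverse complement TTTATT. Among probes higher in t(1;14) the shares were 15.2% and 3.01%, and among probes lower in t(1;14) they were 9.27% and 2.24%.

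A probe was called differential at a limma adjusted p of at most 0.01 and a log2 fold change of at least 2 in size. Of 40567 probes, 2729 were differential (6.73%). More of them were lower than higher in t(1;14): 1964 (72.0%) fell and 765 (28.0%) rose. At a log2 fold change of at least 1 the balance was closer, with 5611 probes lower and 4479 higher. On adjusted p alone it turned, with 8953 lower and 11030 higher. The median over all retained probes was 0.14. With 1 probe per gene, the one of highest mean signal, 122 of 6506 genes rose (1.88%) and 383 fell (5.89%). At the wider threshold of 1, which is used below for gene families, 695 genes rose (10.7%) and 1052 fell (16.2%). These shares are the background against which each family is read.

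Replicate arrays of a boar correlated at 0.9894 to 0.9966 in t(1;14) and 0.9876 to 0.9942 in the oligospermic boar, against 0.9219 to 0.945 between the boars. The median SD per probe was 0.13 and 0.18. Between 37087 and 40001 probes per array were well above background. The groups did not overlap for any of the 2729 differential probes, and the same was true of 70.9% of the probes retained. The 3 slides carried both boars in equal number, and because the groups did not overlap, every differential probe kept its direction within each slide. Both arrays of slide 1 stood apart from the other 4 on the second principal component (9.68% of the variance), and without them 2924 probes were differential. Identical 60-base sequences were spotted as several probes in 2119 cases, and their log2 fold changes spread by a median of 0.05. The probe counts given for a gene below can include such repeats.

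Transcripts of spermatids were lower in the t(1;14) testis. Of 19 spermatid markers measured, 6 fell by at least 2 on the log2 scale, 12 by at least 1, and none rose. The median difference was -1.48, against 0.09 over all genes. The 19 include PRM1, PRM2, TNP1 and TNP2, which were saturated on all oligospermic arrays, so their differences are capped in these counts and in the median. In bulk tissue, fewer cells of a type and less RNA per cell cannot be told apart.

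ODF1, a main protein of the outer dense fibres of the sperm tail, had log2 signals of 11.40, 11.56 and 11.39 in t(1;14) and 14.07, 13.97 and 14.04 in the oligospermic boar. All 3 t(1;14) biopsies lay well below, by -2.58 on the log2 scale (SE 0.09, limma adjusted p = 1.69e-05). Both ODF1 probes gave this value, the other at -2.56. Within slides the difference lay between -2.63 and -2.51. ACTL7B, an actin-related protein of the spermatid head, read 13.25, 12.96 and 13.15 against 15.64, 15.54 and 15.58, a log2 fold change of -2.47 (SE 0.11). Its neighbour gene ACTL7A, also on chromosome 1, fell by 2.44. TSSK2, a testis-specific serine kinase, fell by 2.43 with 4 of 4 probes differential, which hold 2 sequences. SUN5, which links the sperm head to the tail, fell by 2.35. AKAP4, an X-linked scaffold of the fibrous sheath, fell by 1.61.

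The genes that pack the sperm nucleus could not be compared. PRM1, a protamine, was saturated on all 6 arrays. PRM2 was saturated on all 3 oligospermic arrays and on no t(1;14) array, and was at least 1.32-fold lower in t(1;14) (limma adjusted p = 0.0378, which missed the threshold). TNP1 and TNP2, the transition proteins, were saturated on all oligospermic arrays as well.

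The flagellum genes moved in the direction of the spermatid markers, with which their list shares ODF1 and AKAP4. Of 21 genes measured, 5 fell by at least 2, 13 by at least 1, and none rose, with a median of -1.24. CATSPER1, a subunit of the calcium channel that sperm need for hyperactivated motility, read 8.82, 8.52 and 8.71 in t(1;14) and 10.88, 10.91 and 11.18 in the oligospermic boar. The drop of 2.30 (SE 0.13) was seen at 3 of 3 probes, which share 1 sequence. CATSPER3 and CATSPER4, of the same channel, fell by 1.98 and 1.87, while CATSPER2 had a log2 fold change of -0.02. DNAI2, an axonemal dynein intermediate chain, fell by 2.22 at its brighter probe, and AKAP3, a fibrous sheath protein, by 2.21. CFAP161, a protein of the axoneme, fell by 2.26. DNAI2 and CFAP161 fell short of 2 with normexp correction. ODF2 was saturated on all 3 oligospermic arrays.

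Among 12 genes of the acrosome and of sperm-egg interaction, 3 fell by at least 2 and 4 by at least 1, with a median of -0.70. Some of the 12, such as ACR and ACRV1, are spermatid markers as well. EQTN, an acrosomal membrane protein, had the largest drop: its levels were 8.93, 8.79 and 9.03 against 11.65, 11.63 and 11.59 (log2 fold change -2.70, SE 0.10, limma adjusted p = 1.69e-05). ACRV1, another acrosomal protein, fell by 2.37. SPAM1, the sperm hyaluronidase, fell by 2.02, and by less than 2 with normexp correction or without oligospermic array 1. ACR, the protease acrosin, fell by 1.14 and was saturated on 1 oligospermic array. TEX101 was the only one of the 12 with a positive difference (0.98), which did not pass here but passed with normexp correction, with median signals and when t(1;14) array 1 or 3 or oligospermic array 1 or 2 was left out.

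Enzyme isoforms for germ-cell energy supply showed the same direction. HK1, a hexokinase, fell by 2.10 (levels 13.56, 13.63 and 13.50 against 15.63, 15.60 and 15.74), and PGK2, the testis form of phosphoglycerate kinase, by 1.29. Both were among 5 genes measured. AZIN2, an antizyme inhibitor abundant in testis, fell by 2.18, and OAZ3, the antizyme of spermatids and also a marker in the spermatid list, by 1.13. The chaperone HSPA1L, which is made in spermatids, fell by 2.40. Summed over the 19 spermatid markers, with all 9 arrays normalized together, the linear signal ran from 423600 to 461500 in t(1;14), 768700 to 780200 in the oligospermic boar and 750200 to 787300 in controls. The sum holds the saturated PRM1, PRM2, TNP1 and TNP2, so it is capped where signals are highest. Its part in the lower flagellar, acrosomal and enzyme transcripts was not tested.

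**Figure D1:**
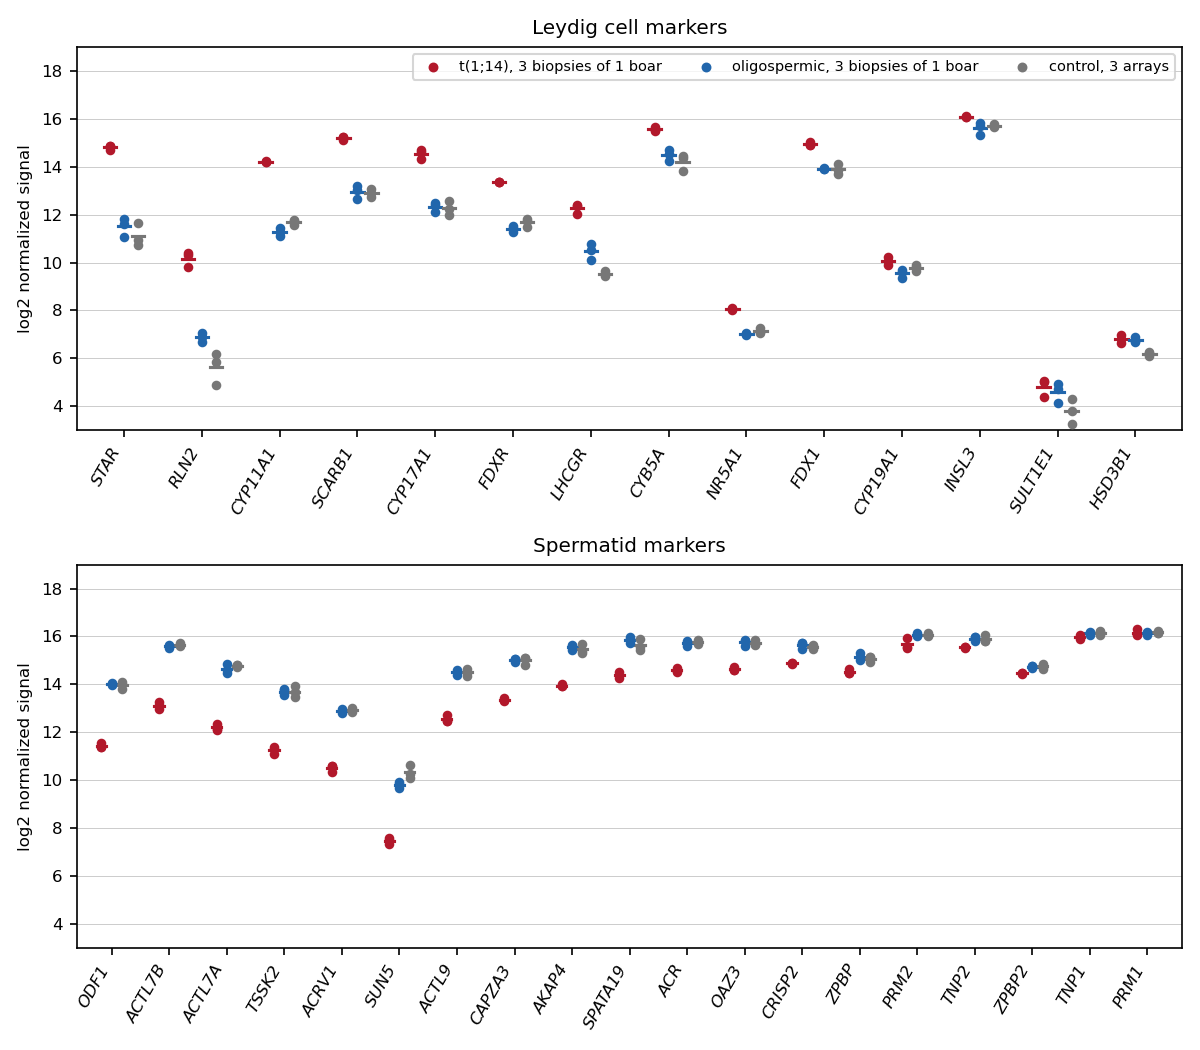
Log2 normalized signal of 14 Leydig markers (top) and 19 spermatid markers (bottom) on each array, with short lines at group means. The t(1;14) and oligospermic values are normalized over 6 arrays and the control values over 9. STAR lies between 14.72 and 14.88 in t(1;14) and between 11.08 and 11.83 in the oligospermic boar, and ODF1 between 11.39 and 11.56 against 13.97 and 14.07.

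Few markers of earlier germ cells passed. Of 9 spermatocyte markers 1 fell and 1 rose at the threshold of 1, with a median of 0.44. These are 11.1% each, against 16.2% and 10.7% of all genes. Of 9 spermatogonium markers 1 rose (11.1%) and none fell, with a median of 0.55. KIT, the receptor of differentiating spermatogonia, also made by Leydig cells, read 11.08, 10.98 and 10.94 in t(1;14) and 9.52, 9.46 and 9.13 in the oligospermic boar. It rose by 1.63 (SE 0.13). SPATA16, an acrosome-related protein first made in spermatocytes, fell by 1.47. DDX4, the germ-cell helicase, had a log2 fold change of -0.81, short of the threshold of 1. Of the 27 genes of the spermatocyte list, 18 had no probe matched here, among them the synaptonemal complex genes SYCP1, SYCP2 and SYCP3. The summed signal of the spermatocyte markers was 46340 to 48730 in t(1;14), 59790 to 63640 in the oligospermic boar and 56280 to 57940 in controls, the opposite direction to their median. That of the spermatogonium markers was 14980 to 15490, 9282 to 11640 and 9896 to 12450.

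SPO11, which makes the double-strand breaks of meiotic recombination, differed in another way. Its levels were 9.78, 9.84 and 9.94 in t(1;14) and 8.81, 8.93 and 8.51 in the oligospermic boar, a rise of 1.11 (SE 0.13, limma adjusted p = 0.000542) that no longer passed without oligospermic array 3. Control arrays were higher than both, at 11.13, 10.42 and 11.09. Against control, t(1;14) was lower by a log2 fold change of -1.01 (limma adjusted p = 0.00847) and the oligospermic boar by -2.19 (limma adjusted p = 0.0341, which missed the threshold). Of 14 genes of recombination and cohesion, 10 did not pass, 3 fell (21.4%, against 16.2% of all genes), and the median was 0.45. RAD21, a cohesin subunit, fell by 1.67, BRCA1, a repair protein, by 1.45, and TEX15, needed for meiotic repair, by 1.60, with the highest of 5 TEX15 probes at 0.75. Of 10 piRNA pathway genes, GTSF1 fell by 1.61, with the highest of 5 probes at 0.26, and the other 9 did not pass.

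Leydig cell transcripts were higher in the t(1;14) testis. Of 14 markers measured, 5 rose by at least 2, 10 by at least 1, and none fell. The median was 1.43, the highest of the cell type lists. STAR, which carries cholesterol into mitochondria at the rate-limiting step of steroid synthesis, read 14.72, 14.87 and 14.88 in t(1;14) and 11.83, 11.62 and 11.08 in the oligospermic boar. The ranges were far apart, with a difference of 3.31 on the log2 scale (SE 0.20, limma adjusted p = 3.42e-05). All 9 STAR probes rose, between 3.22 and 3.66. RLN2, the relaxin gene, rose by 3.29 (levels 9.80, 10.31 and 10.39 against 7.04, 6.90 and 6.69) with 5 of 5 probes, which hold 3 sequences. CYP11A1, the side-chain cleavage enzyme that follows STAR, rose by 2.93 (14.19, 14.26 and 14.20 against 11.46, 11.28 and 11.12) with 7 of 7 probes.

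The electron donors and later enzymes of the pathway rose less, and some did not pass. CYP17A1, the enzyme that commits steroids to androgens, rose by 2.22 (SE 0.16). FDXR and FDX1, which feed electrons to CYP11A1, rose by 1.95 and 1.03, and CYB5A, a cofactor of CYP17A1, by 1.06. HSD3B1 had a log2 fold change of 0.05 and CYP19A1, 1 of the pig's 3 aromatase genes, of 0.52, and neither passed. The other aromatase genes, CYP19A2 and CYP19A3, named after their values were seen, rose by 2.45 and 2.47, and probes of these closely related genes may share signal. AKR1C1, an aldo-keto reductase, rose by 2.45 at 1 of 3 probes and its other probes lay at 0.21 and 0.45, and probes of this family may read related genes. LHCGR, the receptor through which luteinizing hormone acts on Leydig cells, rose by 1.79. INSL3, a Leydig hormone of the relaxin family, was saturated on 2 t(1;14) arrays and 1 oligospermic array, which caps any rise at its brightest probe, and 1 of its other probes rose by 2.02. FSHR, the hormone receptor of Sertoli cells, had a log2 fold change of 0.03.

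Of 21 genes of cholesterol synthesis and supply, 10 rose at the threshold of 1 (47.6%) and 3 fell (14.3%, near the share over all genes). SCARB1, the receptor for high-density lipoprotein, rose by 2.25. MSMO1, a late enzyme of synthesis, rose by 2.31 with 4 of 4 probes. LIPE, the hormone-sensitive lipase, which germ cells also make, fell by 2.93 (10.69, 10.30 and 10.56 against 13.16, 13.47 and 13.70) and was differential at 1 of 5 probes. NPC1 and NPC2, which move cholesterol out of lysosomes, rose by 1.15 and 1.37. The summed signal of the 14 Leydig markers was 265600 to 287700 in t(1;14), 95430 to 128100 in the oligospermic boar and 109100 to 116600 in controls. Its part in the steroid and cholesterol transcripts was not tested. The 14 markers include STAR, CYP11A1, CYP17A1, SCARB1 and other genes of these pathways, so the lists are not independent of each other.

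**Figure D2:**
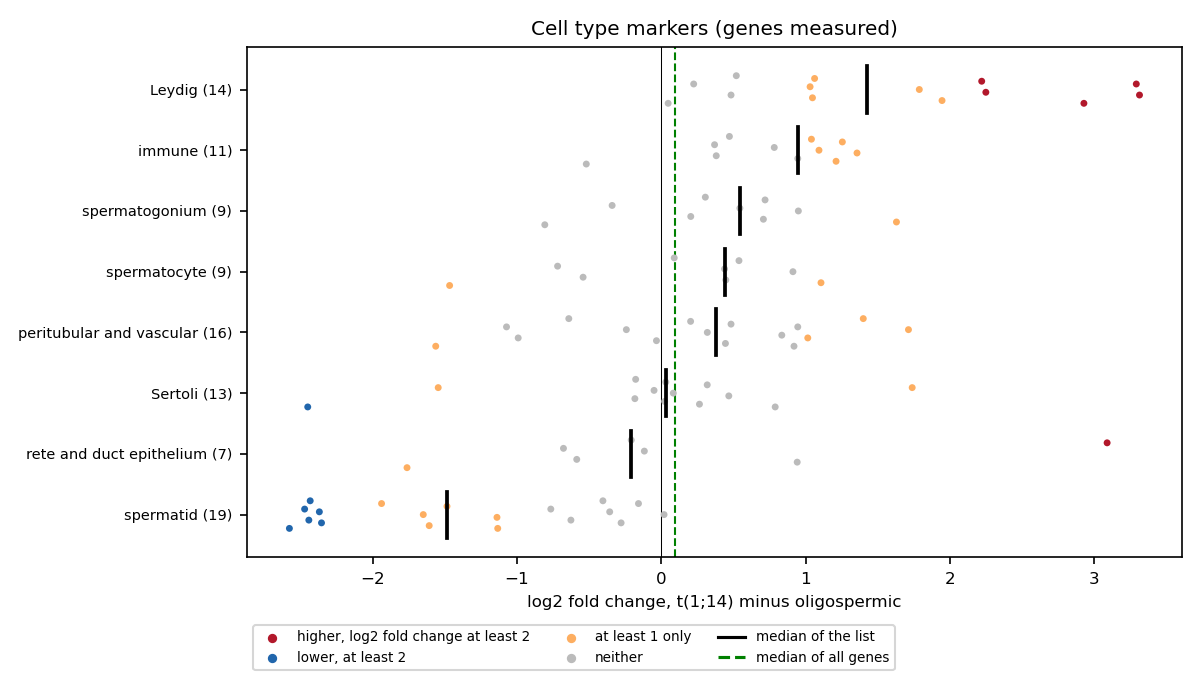
Log2 fold change of each marker gene (points, t(1;14) minus oligospermic) by cell type, with the number of genes measured in parentheses, the list median (black) and the median of all genes (dashed). Leydig markers lie to the right with a median of 1.43, spermatid markers to the left with a median of -1.48, and Sertoli markers are centred at 0.03.

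Other somatic cell types differed less. Of 13 Sertoli markers, 1 rose and 2 fell at the threshold of 1, with a median of 0.03. SOX9, a defining transcription factor of Sertoli cells, had a log2 fold change of 0.08 and AMH one of 0.26, and their groups overlapped. TF, which carries iron to germ cells, fell by 2.45 at 2 of 4 probes, with the highest of them at 0.59. WT1, a Sertoli transcription factor, fell by 1.54. CITED1, an X-linked transcriptional coregulator, rose by 1.74. The summed Sertoli signal was 123800 to 136700 in t(1;14), 112500 to 116300 in the oligospermic boar and 105900 to 120200 in controls. Of 16 peritubular and vascular markers 3 were higher and 1 lower (18.8% and 6.25%).

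Of 11 immune markers, 5 rose by at least 1 and none fell, with a median of 0.95. TYROBP, a signalling adaptor of myeloid cells, rose by 1.25, FCER1G by 1.21 and AIF1 by 1.09. These signals were weak: ITGB2, an integrin of leukocytes, was well above background on 3 t(1;14) arrays and on no oligospermic array. None of the 5 passed with another background correction (normexp), and the summed signal was 921 to 1014 in t(1;14) against 581 to 640 in the oligospermic boar and 600 to 871 in controls. Markers of rete and duct epithelium moved both ways. WFDC2, a duct secretory protein, fell by 1.76, its levels being 9.36, 9.40 and 9.32 against 11.11, 11.07 and 11.19, and did not pass in the model of all 9 arrays. KRT18, an epithelial keratin, was at least 2.12-fold higher in t(1;14) and not well above background on any oligospermic array, and it fell short of 2 with normexp correction. The summed signal of the 7 duct markers was 2404 to 2686 in t(1;14), 4667 to 4888 in the oligospermic boar and 2600 to 3596 in controls. This linear sum is carried by its brightest members: the mean log2 level of the same 7 markers was 7.70 to 7.94, 7.65 to 7.74 and 7.11 to 7.59. HBB, a globin of red cells, had a log2 fold change of -1.86, but the call was lost with normexp correction, with the replicate block, in the model of all 9 arrays and without any 1 oligospermic array or t(1;14) array 1, and control signals (10.7 to 59.3) overlapped both groups.

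A larger share of X-linked than of autosomal genes was higher in t(1;14). Among 502 X probes 27 rose and 7 fell (5.38% and 1.39%), while among 16418 autosomal probes 323 rose and 816 fell (1.97% and 4.97%). Per gene, 50 of 227 X genes rose by at least 1 (22%) against 10.2% of autosomal genes, and the median was 0.54 against 0.08. Of 7 X genes named by the study, all rose by at least 1 and 6 by at least 2, but the study chose them on the same t(1;14) arrays, so they are not independent evidence. RGN, a calcium-binding protein, read 8.71, 8.87 and 8.68 against 6.33, 5.76 and 5.61, a rise of 2.85 that fell just short of 2 with normexp correction. SAT1, the enzyme that acetylates polyamines for breakdown, rose by 2.55 (13.83, 13.94 and 13.98 against 11.43, 11.45 and 11.22). TSC22D3, a glucocorticoid-induced gene, rose by 2.51 at its brighter probe, LAMP2 by 2.47, PLP2 by 2.47 and TMEM47 by 2.43. ARAF, a kinase of the MAP kinase pathway, rose by 1.86. X genes did not all rise: 24 fell by at least 1, AKAP4 of the spermatid list among them. The lower spermatid sum and the higher Leydig sum given above moved with the X genes, and their part was not tested.

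Chromosomes 1 and 14, which carry the breakpoints, had shares of differential probes within the range of the other autosomes. On chromosome 1, 27 of 1938 probes rose and 115 fell (7.33% differential), and on chromosome 14, 42 of 2148 rose and 120 fell (7.54%). The share over all placed probes was 6.93%. Chromosomes 18 (8.94%), 8 (8.74%), 16 (8.12%), 2 (8.05%) and 7 (7.59%) had higher shares. The medians were 0.08 and 0.01 for chromosomes 1 and 14, against 0.11 for all autosomes. Per gene at the threshold of 1, 61 of 649 genes of chromosome 1 rose (9.4%) and 130 fell (20%), the highest share of falls of any chromosome, against 10.2% and 16.2% of all autosomal genes. On chromosome 14, 7.58% rose and 16.8% fell.

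Of 23 lysosomal genes measured, 5 rose by at least 2, 9 by at least 1, and none fell, while 14 did not pass, with a median of 0.92. GUSB, which removes glucuronic acid from glycans, read 12.63, 12.74 and 12.70 in t(1;14) and 9.19, 9.15 and 8.91 in the oligospermic boar (log2 fold change 3.61, SE 0.11, limma adjusted p = 1.69e-05). NEU1, which removes sialic acid, rose by 3.39 (9.61, 9.41 and 9.73 against 6.27, 6.34 and 5.96). LIPA, which frees cholesterol from its esters in lysosomes, rose by 2.27, and LGMN, a protease, by 2.21. CTSB, the protease cathepsin B, rose by 1.33.

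Of 27 enzymes against oxidation, 10 rose by at least 1 and none fell, while 17 did not pass, with a median of 0.84. GPX3, the secreted glutathione peroxidase, read 12.54, 13.05 and 12.62 against 9.49, 9.19 and 9.02, a rise of 3.50 (SE 0.18). NQO1, a quinone reductase, rose by 3.21 (14.83, 15.04 and 15.05 against 11.91, 11.90 and 11.47) with 5 of 5 probes. GSR, which regenerates reduced glutathione, rose by 2.58. GSTO1, the peroxiredoxins PRDX3 and PRDX2, and TXN rose by 1.93 to 1.99. GPX4, the isoform made in abundance by spermatids, was saturated on all 3 oligospermic arrays. The summed Leydig and immune signals given above moved with both families, and their part in them was not tested.

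**Figure D3:**
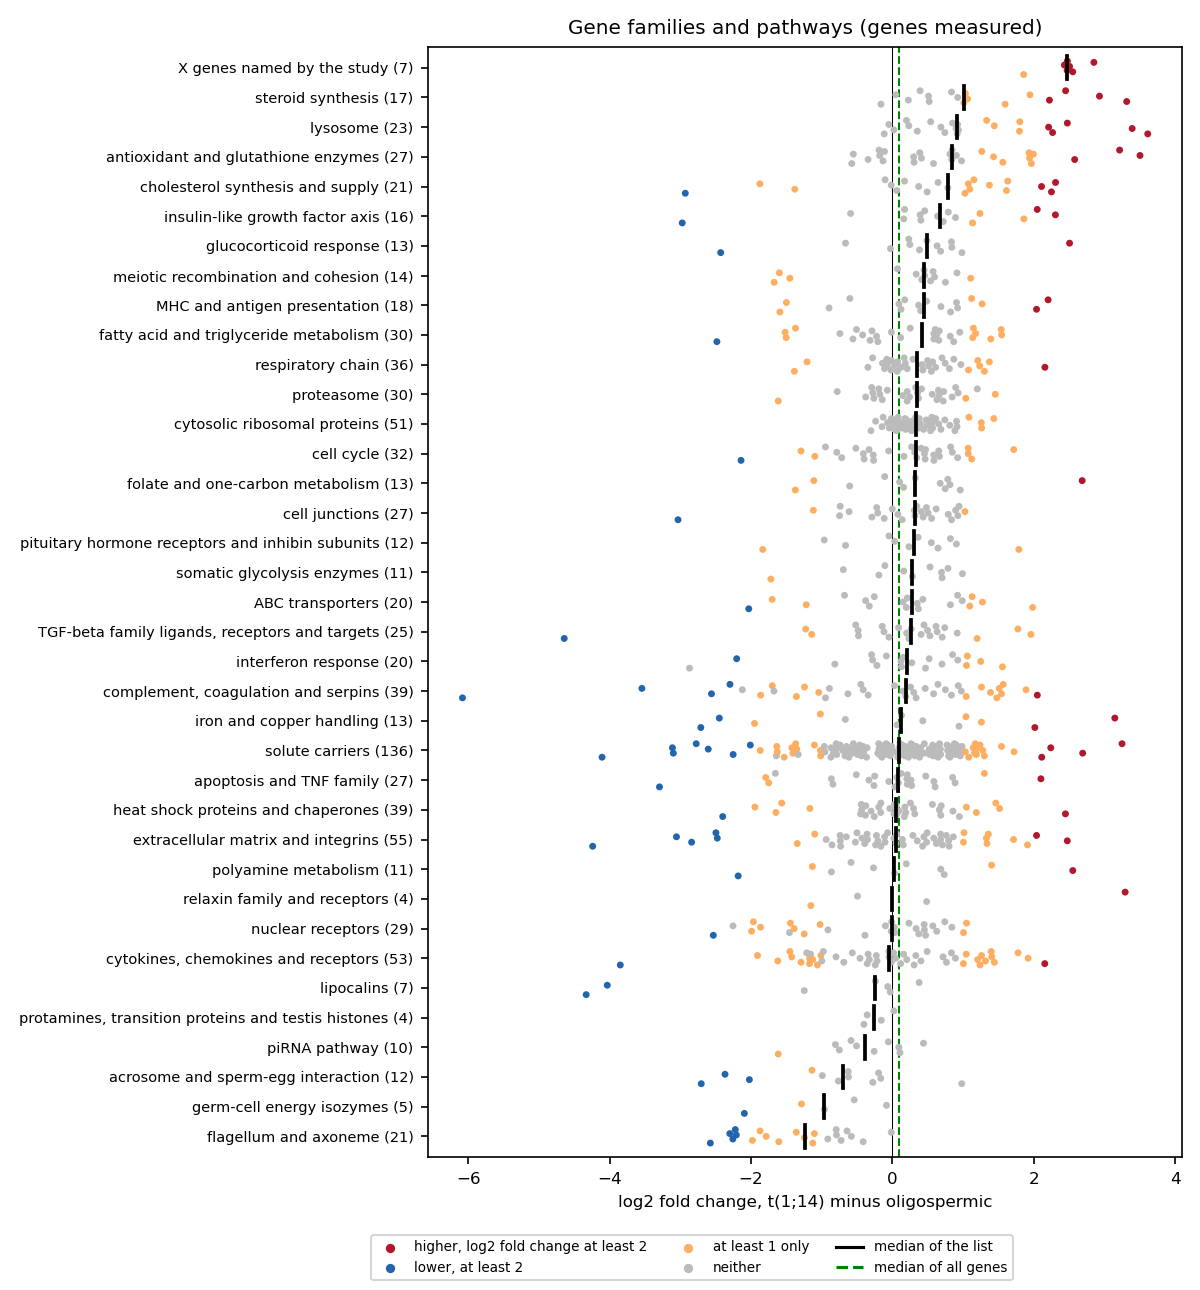
Log2 fold change of each gene (points) in 37 gene families and pathways, sorted by the family median (black), with the number of genes measured in parentheses and the median of all genes (dashed). The X genes, steroid synthesis, lysosome and antioxidant families lie at the top, and the flagellum (median -1.24) at the bottom.

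Ribosomal protein and proteasome genes changed less often than genes in general, of which 10.7% rose and 16.2% fell. Of 51 cytosolic ribosomal proteins 4 rose by at least 1 (7.84%) and none fell (median 0.33), the X-linked RPL10 and RPS4X among the 4. Of 30 proteasome genes 2 rose (6.67%) and 1 fell (3.33%). Of 36 respiratory chain genes 6 rose (16.7%, above the share over all genes) and 2 fell (5.56%). COX7A1, a contractile-tissue isoform of cytochrome oxidase, rose by 2.16. Of 11 glycolysis enzymes 1 fell, TPI1 by 1.72. Of 39 heat shock proteins 5 rose and 5 fell (12.8% each, near the shares over all genes). HSPB8, a small heat shock protein, rose by 2.45 with 5 of 8 probes, while the lowest of its probes lay at -0.41.

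Of 25 TGF-beta family genes 3 rose and 3 fell (12% each, near the shares over all genes), and 3 and 1 with normexp correction. BMP5, a bone morphogenetic protein, fell the most: its levels were 4.93, 4.30 and 4.76 in t(1;14) and 9.38, 9.09 and 9.44 in the oligospermic boar (log2 fold change -4.64, SE 0.19). ID1 and ID3, common targets of such signals, rose by 1.20 and 1.77. In the insulin-like growth factor axis, 5 of 16 genes rose and 1 fell (31.2% and 6.25%). INSR, the insulin receptor, rose by 1.86. IGFBP4, a binding protein, rose by 2.05 and PAPPA, the protease that cleaves it, fell by 2.97. STC1, an inhibitor of that protease, rose by 2.30 at its brightest probe, with the lowest of 4 at -0.64. GHR, the growth hormone receptor, fell by 1.83. Of 29 nuclear receptors, 8 fell and 2 rose (27.6% and 6.9%), and 7 and 0 with normexp correction. HNF4A, a receptor best known from liver, fell by 2.53 at 1 of 3 probes, with the others at -1.25 and -1.11. RXRG fell by 1.87 and PPARG, a regulator of lipid storage, by 1.44. FOLR1, a folate receptor, rose by 2.68 (13.44, 13.79 and 13.55 against 11.26, 10.82 and 10.65) with 3 of 4 probes.

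Of 39 complement, coagulation and protease inhibitor genes 9 rose and 9 fell (23.1% each), and 4 and 6 with normexp correction. SERPINA1, the inhibitor of neutrophil elastase, fell by 3.54 with 4 of 4 probes. C3, the central component of complement, fell by 2.30 with 6 of 6 probes (7.44, 7.58 and 7.19 against 9.57, 9.57 and 9.96), and C5 fell by 2.56. C9, a later component, rose by 2.05. Of 18 antigen presentation genes 4 rose and 2 fell (22.2% and 11.1%). The class I genes SLA-3 (3 of 8 probes) and SLA-5 rose by 2.20 and 2.04, and these near-identical genes may share signal. Of 20 interferon response genes 4 rose and 1 fell (20% and 5%), and with normexp correction 1 rose. The gene that fell was OAS1, an interferon-induced enzyme, by 2.20 at its brighter probe. Of 53 cytokines, chemokines and receptors, 12 rose and 11 fell at the threshold of 1 (22.6% and 20.8%), and 5 and 3 with normexp correction. CXCL2, a chemokine that attracts neutrophils, rose by 2.15 with 3 of 3 probes, which hold 2 sequences. TNFRSF12A, a receptor of the TNF family, rose by 2.10. FASLG was at least 4.96-fold lower and IL10 at least 3.61-fold lower, with no t(1;14) array well above background. Of 55 matrix and integrin genes 9 rose and 7 fell (16.4% and 12.7%), and 5 and 4 with normexp correction. MMP19, a matrix protease, rose by 2.47 at its brighter probe, with the other at -1.40, and POSTN, periostin, fell by 2.50 with 5 of 6 probes. Among 136 solute carriers, 16 rose and 18 fell, and 6 and 9 with normexp correction. The shares of 11.8% and 13.2% were near those over all genes, 10.7% and 16.2%. SLC30A4, a zinc exporter, fell by 3.10 (8.61, 8.75 and 8.65 against 11.60, 11.85 and 11.86), SLC12A5, a potassium-chloride cotransporter, fell by 3.11, and SLC7A9, an amino acid transporter, was at least 8.90-fold higher. With normexp correction the changes of IGFBP4, PAPPA, STC1, HNF4A, C3, SLA-5, CXCL2, TNFRSF12A, FASLG, IL10, POSTN, SLC12A5 and SLC7A9 kept their direction and fell short of 2.

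The 10 genes with the largest rises were ranked by fitted log2 fold change. The ranks of TBX18, HPD, CPNE6 and, on 2 of 3 arrays, FOS rest on oligospermic signals below background, and the bounds on TBX18 and CPNE6 are smaller than the measured rise of NEU1. TBX18, a T-box transcription factor of mesenchyme, read 6.68, 6.79 and 6.62 in t(1;14) and was not well above background on any oligospermic array, a rise of at least 7.82-fold. HPD, an enzyme of tyrosine breakdown, rose at least 13.8-fold, and CPNE6, a calcium-dependent membrane-binding protein, at least 8.84-fold. FOS, the immediate early transcription factor, rose by 4.26 (8.29, 8.16 and 8.25 against 3.93, 3.46 and 4.54), and 1 oligospermic array was well above background. SFXN3, a sideroflexin of mitochondria, rose by 3.98 at its brighter probe, with the other at 1.72. FAP, a protease of activated fibroblasts, rose by 3.83 (11.11, 11.42 and 11.35 against 7.76, 7.50 and 7.12). IFITM1, an interferon-induced membrane protein, rose by 3.58 at its brighter probe, with the other at 1.30. TBX18, HPD and CPNE6 fell short of 2 with normexp correction.

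For several of these genes 1 control array stood apart from the other 2. TBX18 read 7.56 on 1 control array and 2.71 and 1.40 on the others, and FOS read 9.63 on the same array against 5.39 and 4.63. Control arrays of GUSB lay between 9.39 and 10.38, below all t(1;14) arrays and above all oligospermic arrays.

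Among the largest falls, ranked in the same way, KCNS3, a modulatory potassium channel subunit, read 5.76, 5.34 and 5.34 in t(1;14) and 9.81, 9.74 and 9.93 in the oligospermic boar (log2 fold change -4.34). CRNN, cornulin, fell by 4.41 with 3 of 3 probes, which hold 2 sequences, and OPN1SW, an opsin, was at least 6.68-fold lower. Of 7 lipocalins measured, 2 fell (LCN5 and SAL1) and 5 did not pass, with a median of -0.24. BPIFA2, a parotid secretory protein, fell by 4.12, and LCN5, an epididymal lipocalin, by 4.33 (4.24, 4.51 and 4.25 against 8.61, 8.59 and 8.80). SAL1, the salivary lipocalin that binds boar pheromone, was not among the 10 largest falls. It fell by 4.03 (9.65, 9.38 and 9.41 against 13.50, 13.35 and 13.68), with control arrays at 13.80, 13.46 and 13.90. SLC4A4, a sodium bicarbonate cotransporter, was at least 4.37-fold lower. OPN1SW and SLC4A4 fell short of 2 with normexp correction, and their ranks rest on t(1;14) signals below background.

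C6 and SMPD3 have lower bounds only, so their rank among the falls is not known. C6, a component of the terminal complement complex, read 8.05, 7.82 and 8.17 in the oligospermic boar while every t(1;14) array failed the background test. It was at least 20.7-fold lower, with 4 of 4 probes differential, which hold 3 sequences. The control arrays read 2.66, 8.64 and 2.94, so 1 was high and 2 were low. SMPD3, a neutral sphingomyelinase, was at least 15.8-fold lower at the probe shown above, with control arrays at 2.25, 1.86 and 8.67, and its other probe was too dim in t(1;14) to compare. The unnamed probe A_72_P084046 was at least 761-fold lower, and the unnamed probe CUST_177_PI428639843 at least 86.2-fold higher.

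**Figure D4:**
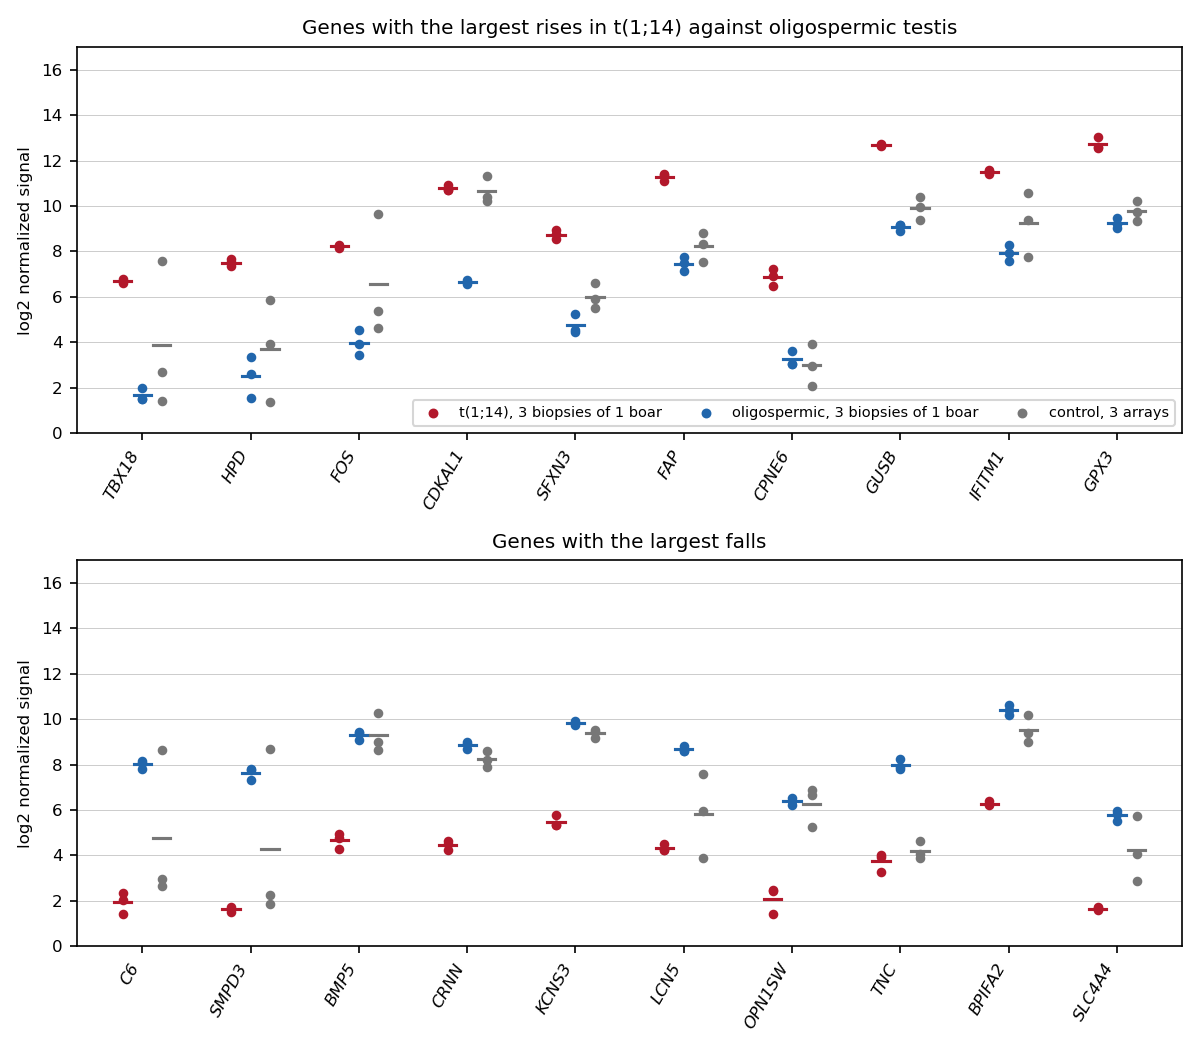
Log2 normalized signal of the 10 genes with the largest fitted rises (top) and the 10 with the largest fitted falls (bottom) on each array, some of them below background in 1 group, with short lines at group means. The t(1;14) and oligospermic values are normalized over 6 arrays and the control values over 9. C6 and SMPD3 each have 1 control array near the oligospermic level of 7.30 to 8.17 and 2 near the t(1;14) level.

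For CDKAL1, TNC and ABCG2 the oligospermic boar was the group that stood apart. CDKAL1, a tRNA-modifying enzyme, read 10.91, 10.69 and 10.72 in t(1;14), 6.56, 6.65 and 6.72 in the oligospermic boar and 10.40, 11.33 and 10.21 in controls. Its log2 fold change was 4.13 between the infertile boars and 0.13 for t(1;14) against control, and the oligospermic boar lay at -4.09 against control (limma adjusted p = 0.00724). This held for 2 of the 3 CDKAL1 probes shown above, the third being at -0.77. TNC, the matrix protein tenascin C, was high only in the oligospermic boar (7.88, 7.82 and 8.25, against 3.94, 4.04 and 3.25 in t(1;14) and 4.06, 4.62 and 3.90 in controls), a fitted log2 fold change of -4.24, of uncertain size because only 1 t(1;14) array was well above background. ABCG2, a drug and sterol efflux transporter, read 10.17, 10.45 and 10.17 in t(1;14), 12.25, 12.26 and 12.38 in the oligospermic boar and 9.89, 9.78 and 9.99 in controls. It fell by 2.03 with 4 of 5 probes, and it fell short of 2 when t(1;14) array 1 or 3 or oligospermic array 3 was left out.

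For most differential probes the control arrays lay with the oligospermic boar. Of 1964 probes lower in t(1;14), all 3 control arrays were nearer the oligospermic than the t(1;14) mean for 1692 (86.2%) and none was for 35 (1.78%). Of 765 higher probes, all 3 were for 520 (68.0%) and none for 26 (3.40%). Of the 505 differential genes, 8 had no control array nearer the oligospermic mean, among them CDKAL1, TNC and ABCG2. STAR was 3.73 above control in t(1;14) and 0.42 in the oligospermic boar. ODF1 was at -2.50 and 0.06, GUSB at 2.76 and -0.86, and SAL1 at -4.20 and -0.19. The t(1;14) and oligospermic comparisons with control share the control arrays.

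**Figure D5:**
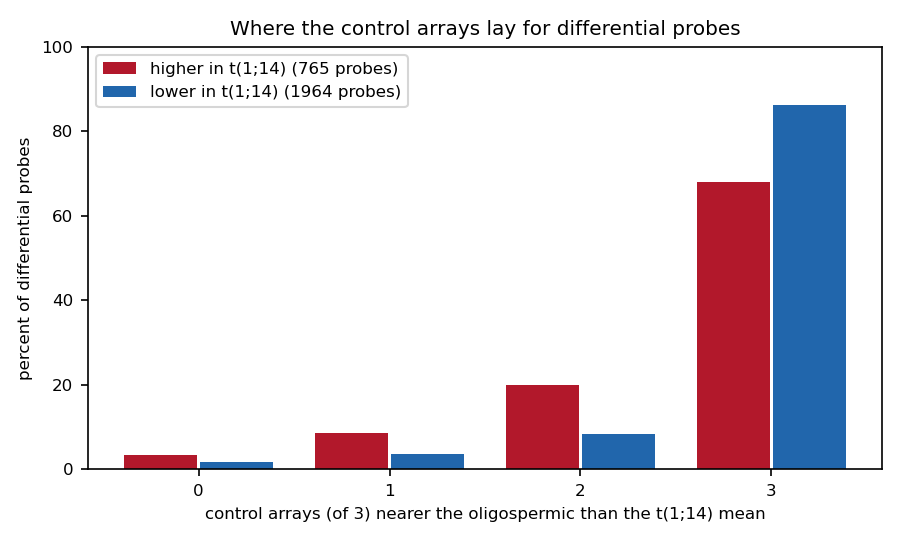
Percent of differential probes by the number of control arrays (of 3) whose log2 signal was nearer the oligospermic than the t(1;14) mean, for probes higher (765) and lower (1964) in t(1;14). All 3 control arrays lay nearer the oligospermic mean for 68.0% of higher and 86.2% of lower probes.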

How the data were processed

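Per the labels, total RNA from testicular biopsies was labelled with cyanine 3 and hybridized to 1-colour Agilent arrays. The deposited scanner files hold spot intensity, background-subtracted and detrended by Feature Extraction 11.5.1.1 and not normalized between arrays. The authors also deposited quantile-normalized log2 values, used here as an alternative. Here log2 processed signal was quantile normalized over the 6 arrays with limma (version 3.58.1, run in R 4.3.3), tables were read with data.table (1.17.8), control spots were left out and outlier flags set missing. Probes well above background on at least 2 of 3 arrays of 1 group were kept. Probes were tested with lmFit and eBayes, p was Benjamini-Hochberg adjusted over the retained probes, and a call needed an adjusted p no higher than 0.01 with a log2 fold change of 2 or more in size. Where no array of a group was well above background, the fold is a lower bound against the higher of the dim signal and the lowest signal well above background on each array. A fold with all arrays of 1 group saturated is a lower bound too. The number of arrays limits the precision. No column of sample values was left unused (0).

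Probes were named through a RefSeq gene table of Sscrofa11.1 by accession, symbol, gene number, synonym or linked accession, which matched 20907 of 60889 probes to 7548 genes. Only names and chromosomes were taken from it. A gene stands for its probe of highest mean signal. The 46 gene lists (9 cell types, 37 families) and the rule for named genes were chosen with earlier results of these data known, so no p is given for a list. Named were the 10 largest rises and falls, up to 4 differential genes of each list, defining markers, X genes of the study, ABCG2, TNC and CDKAL1. Other family members were named after their values were seen. Some genes are not reported here.

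Deviations from the group means correlated at 0.33 to 0.529 between arrays of the same slide. Tested on simulated data for this comparison (40567 probes, 200 changed by 3 on the log2 scale), the fit recovered 88.5% with 1 false call. With slide as a block it recovered 64.5%. The simulated noise was independent between arrays and held no slide effect, so these shares cannot tell whether a block suits the real arrays. On the real arrays the block gave 2752 differential probes, against 2729 without it. Far fewer probes were changed in the simulation than were differential here.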

Additional observations from a re-analysis of the deposited data

How the results depend on the processing

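The count of 2729 differential probes (765 higher, 1964 lower) stayed within 1.5 times with scaling by the 75th percentile, the deposited log2 values, no filter on dim probes, an intensity trend, slide as a block and all 9 arrays in one model. Leaving out 1 array gave 2295 to 2915 probes in all, 634 to 958 higher and 1661 to 2022 lower. The paired fit, with the replicate number as a block, gave 2699 (756 higher, 1943 lower), but arrays of equal number shared no deviation (r = -0.454, -0.38 and 0.134) and were not taken as pairs. The count depended on the background correction: 1125 probes (280 higher, 845 lower) passed with normexp correction and 1398 (338 higher, 1060 lower) with median signals without background subtraction, and a filter in both groups left 479 higher probes. The cause was not tested. A log2 fold change of at least 1 gave 10090 probes (4479 higher, 5611 lower), and adjusted p alone 19983 (11030 higher, 8953 lower). With 1 probe per gene 505 genes passed (122 higher, 383 lower). Of 87 named genes none changed direction. Among those lost were IL10, FASLG, KRT18, CP, COL12A1, PAPPA, STC1, SLC4A4, TBX18 and HPD with normexp, and ABCG2 without t(1;14) array 1 (-1.99) and 2 other arrays. Leydig rises of at least 1 numbered 8 to 10, spermatid falls 11 to 12, lysosome rises 9 to 13, antioxidant rises 10 to 11 and immune rises 0 to 6 over the alternatives. Leaving out both arrays of slide 1 was chosen after seeing the data.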
